A study of Homo sapiens with 4 samples.

Results

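The urokinase and plasminogen activation system was described in HT1080 cells with a KDAC8 knockout through 9 genes, PLAU, PLAUR, PLAT, PLG, PLGRKT, SERPINE2, SERPINB2, ANXA2 and S100A10. They were taken by gene name from a deposited table of 60675 gene rows, and each name matched 1 row. HT1080 is a human fibrosarcoma line, grown in medium with fetal bovine serum. HDAC8 is the gene of KDAC8, a lysine deacetylase. The series holds 1 group, 4 replicate libraries of rRNA-depleted total RNA from KDAC8 knockout cells, and no unedited HT1080 library was analysed here. What follows is therefore the level of each gene in knockout cells, the spread between libraries and the ratio of genes within a library. The sources used here do not give how the gene was disrupted, whether the line is a single clone, or whether replicates were separate cultures. A p-value here therefore speaks only of these libraries, whose spread is possibly a technical one.

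Plasminogen, encoded by PLG and made chiefly by the liver, is the inactive precursor of plasmin, a serine protease that dissolves fibrin and matrix proteins. The urokinase activator (PLAU) and the tissue activator (PLAT) cleave it to plasmin. Cells concentrate the reaction at their surface: urokinase binds its GPI-anchored receptor (PLAUR), while plasminogen binds proteins such as the annexin A2 and S100A10 complex and PLGRKT. Serpins trap the activators, among them protease nexin 1 (SERPINE2) and the type 2 plasminogen activator inhibitor (SERPINB2). HT1080 cells are widely used to study urokinase and cell invasion.

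Promoter stretches are shown for the 3 members with a match to the AP-1 motif, the binding site of FOS and JUN proteins, and for PLAU, where GC boxes stand close to the start. The 250 bases before each RefSeq start (GRCh38.p14) were searched on both strands. The letters TGANTCA stood for AP-1 sites. A GC box was searched as GGGCGG. For the TATA box, a general promoter element, the letters were TATAAA. The CCAAT box was searched by the letters of its name. Overlapping matches of one motif were all counted. Capitals mark every match, and the runs are 5′ to 3′ on the strand of the gene. For PLAUR and PLAU, 30 bases around a match are given, and for ANXA2 and SERPINB2 the stretch that holds no annotated exon.
PLAUR, chr19:43670338-43670367, reverse strand: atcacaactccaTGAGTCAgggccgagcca
ANXA2, chr15:60398044-60398236, reverse strand: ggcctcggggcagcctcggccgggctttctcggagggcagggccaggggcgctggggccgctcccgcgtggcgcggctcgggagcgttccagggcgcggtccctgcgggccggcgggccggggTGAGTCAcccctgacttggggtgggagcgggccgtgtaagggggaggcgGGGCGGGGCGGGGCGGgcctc
SERPINB2, chr18:63887455-63887699, forward strand: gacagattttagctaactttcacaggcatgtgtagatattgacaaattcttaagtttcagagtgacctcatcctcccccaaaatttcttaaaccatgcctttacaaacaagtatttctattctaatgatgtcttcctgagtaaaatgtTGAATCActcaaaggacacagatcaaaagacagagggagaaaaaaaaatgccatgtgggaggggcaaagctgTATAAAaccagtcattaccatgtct
PLAU, chr10:73911080-73911109, forward strand: gGGGCGGcgccgGGGCGGgccctgatatag
The AP-1 letters were present before a start of 3 of the 8 members in the promoter table. These 8 members have 11 entries in all, and PLAT has none. Of all 35116 entries, counted by entry and not by gene, 6.57% hold the letters. The matches lay 186 bases before the start of PLAUR, 127 before that of ANXA2 and 102 before that of SERPINB2. GC boxes, held by 42.6% of entries, stood 66, 51 and 40 bases before 1 of the 2 PLAU starts, of which the capitals show the nearer 2. A TATA box, held by 10.7% of entries, stood 30 bases before the start of SERPINB2 and 31 before that of ANXA2, where it lies outside the stretch printed. These matches describe the reference sequence and do not show binding.

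Total counts were 39454210 to 45828807 per library. Levels are given as CPM, counts per 1000000 of the effective library size, with the SD over the 4 libraries. HDAC8, the targeted gene, had 80, 89, 95 and 107 counts in replicates 1 to 4, and counts over the whole gene do not check the knockout. Of 10 mesenchymal markers, the list that matches a fibrosarcoma line, 9 reached 1 CPM in every library and VIM stood at 4701 ± 283 CPM. No marker of 7 for hepatocytes or of 6 for endothelial cells reached that level, and their summed levels per library were 0.214 to 0.594 CPM and 1.28 to 1.77 CPM. Of 7 leukocyte markers CD68, a lysosomal protein of many cells, and CSF1R did, with PTPRC at 0.0117 ± 0.0136 CPM, CD14 at 0 counts and a list sum of 82.3 to 94.99 CPM. Of 6 epithelial markers KRT8 and KRT18 did, with EPCAM, CDH1 and KRT5 at 0 counts and a list sum of 359 to 428 CPM.

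Of the 9 genes, 8 reached 1 CPM in all 4 libraries, against 21.4% of all rows, and plasminogen itself was the exception. All 9 are protein-coding, while the rows also include pseudogenes and other non-coding genes. The share among protein-coding rows alone was not computed. For these genes and the lists below, 21.4% is therefore not a like-for-like background. In bulk RNA, fewer cells of a kind and less RNA per cell cannot be told apart. The libraries held RNA for both activators, the urokinase receptor, 3 plasminogen-binding proteins and both serpins. The plot of CPM by library shows that the 8 genes spanned 5.02 to 1588 CPM.

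**Figure D1:**
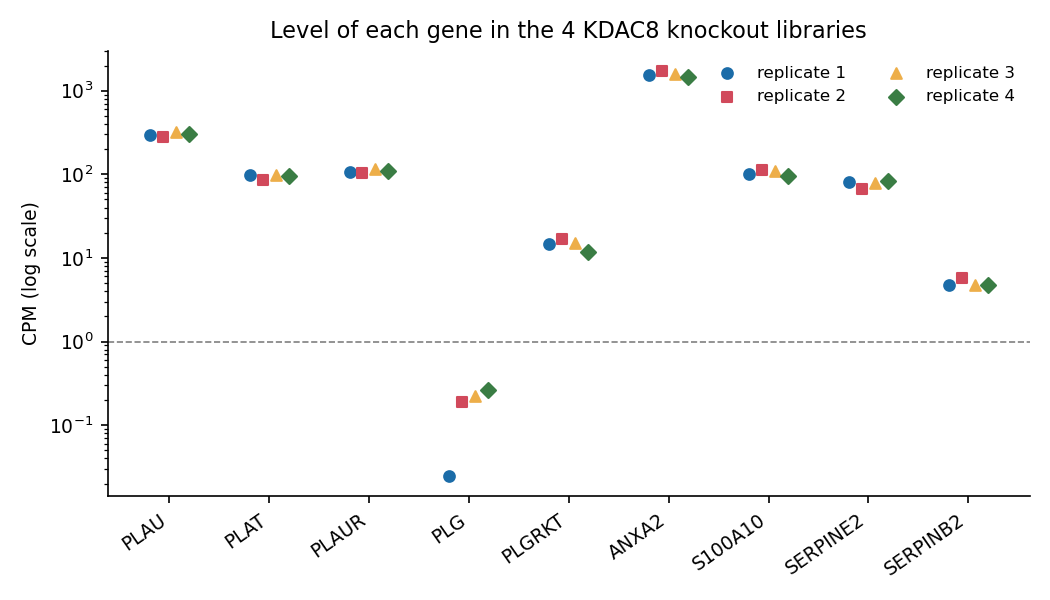
CPM on a log axis for each of the 9 genes, 1 symbol per KDAC8 knockout library; the dashed line is the detection threshold of 1 CPM. ANXA2 is highest at 1467 to 1721 CPM and PLG is the only gene under the line, at 0.0247 to 0.260 CPM.

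PLAU, the urokinase gene (ENSG00000122861, chr10:73909177-73917497, GRCh38, forward strand), was the more abundant activator. It had 299, 279, 325 and 303 CPM in replicates 1 to 4, a mean of 301 ± 18.9 CPM (SD, n = 4). Replicate 2 was lowest and replicate 3 highest, 1.17 times apart. Per kilobase of annotated exon it stood at 102 ± 6.41 CPM, and 2.45% of the 11570 detected protein-coding genes lay above it.

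PLAT, the tissue activator (ENSG00000104368, chr8:42175233-42207724, GRCh38, reverse strand), had 97.9, 85.8, 99.2 and 95.4 CPM, a mean of 94.6 ± 6.07 CPM. Like PLAU it was lowest in replicate 2 and highest in replicate 3. Per kilobase PLAT stood at 14.3 ± 0.917 CPM, with 24.3% of detected protein-coding genes above it.

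PLAU exceeded PLAT in every library when counts were divided by exon length. At mean levels of 102 CPM per kilobase for PLAU and 14.3 for PLAT, the log2 ratios were 2.78, 2.87, 2.88 and 2.83 in replicates 1 to 4, a mean of 2.84 ± 0.05 (SD, n = 4), which is 7.15-fold. The excess was 4.15-fold with the length of the longest annotated transcript. By an exact permutation test that flips signs, two-sided p was 0.125, before and after Benjamini-Hochberg adjustment over the 4 pairs tested here. That is the smallest p that 4 libraries allow, and each of the other 3 pairs gave the same value.

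PLAUR, the urokinase receptor (ENSG00000011422, chr19:43646095-43670547, GRCh38, reverse strand), was expressed below its ligand. It had 107, 105, 116 and 109.8 CPM, a mean of 109 ± 4.89 CPM, the narrowest spread of the 9 genes at 4.47% of the mean. Replicate 2 was again lowest and replicate 3 highest. PLAUR stood at 24.6 ± 1.10 CPM per kilobase, against 102 ± 6.41 for PLAU. Within a library the log2 ratio of PLAUR to PLAU was -2.08, -2.01, -2.08 and -2.06, a mean of -2.06 ± 0.03, or 4.16-fold lower. This gap rests on annotated length, since it was 1.67-fold with the longest transcripts, of 1610 bases for PLAUR and 2658 bases for PLAU, against joined exons of 4457 bases for PLAUR and 2950 for PLAU. Levels of RNA give no ratio of receptor to ligand protein.

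PLG (ENSG00000122194, chr6:160702238-160753315, GRCh38, forward strand) was close to the counting limit. It had 1, 8, 10 and 11 counts in replicates 1 to 4, that is 0.0247, 0.190, 0.221 and 0.260 CPM. The exact Poisson 95% interval was 0.0253 to 5.57 counts in replicate 1 and 5.49 to 19.7 counts in replicate 4. These intervals overlapped narrowly, which is not a test of whether the libraries differ. A limit of 3 counts corresponds to 0.0662 to 0.0742 CPM in a library, above the value in replicate 1 and below the other 3. The mean of 0.174 ± 0.104 CPM was under the minimum of 10 counts for the test between libraries. PLGLB1 and PLGLB2, plasminogen-like genes of similar sequence, stood at 0.700 ± 0.230 and 0.289 ± 0.140 CPM. The expected counts of PLG were whole in every library, while some of PLGLB1 and PLGLB2 were not. Whether reads of such copies were shared was not tested, so the PLG count is uncertain.

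The proteins that hold plasminogen at the cell surface were far more abundant as RNA. ANXA2, annexin A2 (ENSG00000182718, chr15:60347134-60402883, GRCh38, reverse strand), a calcium-dependent membrane-binding protein, led the system with 1558, 1721, 1605 and 1467 CPM, a mean of 1588 ± 106 CPM. Replicate 2 was highest and replicate 4 lowest. Its level of 180.0 ± 11.97 CPM per kilobase was exceeded by 1.33% of detected protein-coding genes. Its 3 processed pseudogene rows, ANXA2P1, ANXA2P2 and ANXA2P3, together held 0.00476% to 0.0198% of the joint counts. ANXA2R, a separate gene named as a receptor of annexin A2, stood at 0.626 ± 0.210 CPM.

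S100A10, also called p11 (ENSG00000197747, chr1:151982915-151994390, GRCh38, reverse strand), forms a complex with annexin A2 and offers lysine residues that plasminogen binds. It had 102, 114, 108 and 95.1 CPM, a mean of 105 ± 8.11 CPM, with the libraries in the same order as for ANXA2. Per kilobase it stood at 67.9 ± 5.26 CPM, with 3.93% of detected protein-coding genes above it. S100A10 was the lower chain per kilobase in 4 of 4 libraries, with log2 ratios to ANXA2 of -1.42, -1.40, -1.37 and -1.43. Their mean was -1.41 ± 0.03, or 2.65-fold lower, and 5.17-fold lower with the longest transcripts. The joined exons of ANXA2 spanned 8824 bases over 38 annotated transcripts and its longest transcript 3528 bases, so its value per kilobase depends on the length used.

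PLGRKT, a membrane protein that binds plasminogen through its terminal lysine (ENSG00000107020, chr9:5357973-5437878, GRCh38, reverse strand), was lower. It had 14.5, 16.9, 15.2 and 11.8 CPM, a mean of 14.6 ± 2.11 CPM. Replicate 2 was highest and replicate 4 lowest, 1.43 times apart, the widest range of the 8 detected genes. Per kilobase PLGRKT stood at 9.79 ± 1.41 CPM.

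Both serpins were detected, at different levels. SERPINE2, which is secreted and inhibits thrombin, urokinase and plasmin (ENSG00000135919, chr2:223975112-224039319, GRCh38, reverse strand), had 80.5, 67.5, 77.8 and 83.8 CPM, a mean of 77.4 ± 7.05 CPM. Replicate 2 was lowest and replicate 4 highest. SERPINB2, which remains largely in the cytosol (ENSG00000197632, chr18:63871692-63903890, GRCh38, forward strand), had 4.80, 5.82, 4.70 and 4.75 CPM, a mean of 5.02 ± 0.534 CPM. Replicates 1, 3 and 4 lay close together and replicate 2 above them. SERPINE2 exceeded SERPINB2 in 4 of 4 libraries, at 8.70 ± 0.793 CPM per kilobase for SERPINE2 and 1.83 ± 0.194 for SERPINB2. The log2 ratios were 2.37, 1.84, 2.35 and 2.45, a mean of 2.25 ± 0.28, or 4.77-fold. SERPINB10, which overlaps 547 exonic bases of SERPINB2, had 1 count in replicate 3 and 0 in the others.

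Per kilobase the descending order was ANXA2, PLAU, S100A10, PLAUR, PLAT, PLGRKT, SERPINE2, SERPINB2 and PLG. Library ranges of neighbours in that order did not overlap, except for PLGRKT (7.92 to 11.3 CPM per kilobase) and SERPINE2 (7.59 to 9.43). The order was the same with either length, while the distances changed, as the plot of levels per kilobase shows.

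**Figure D2:**
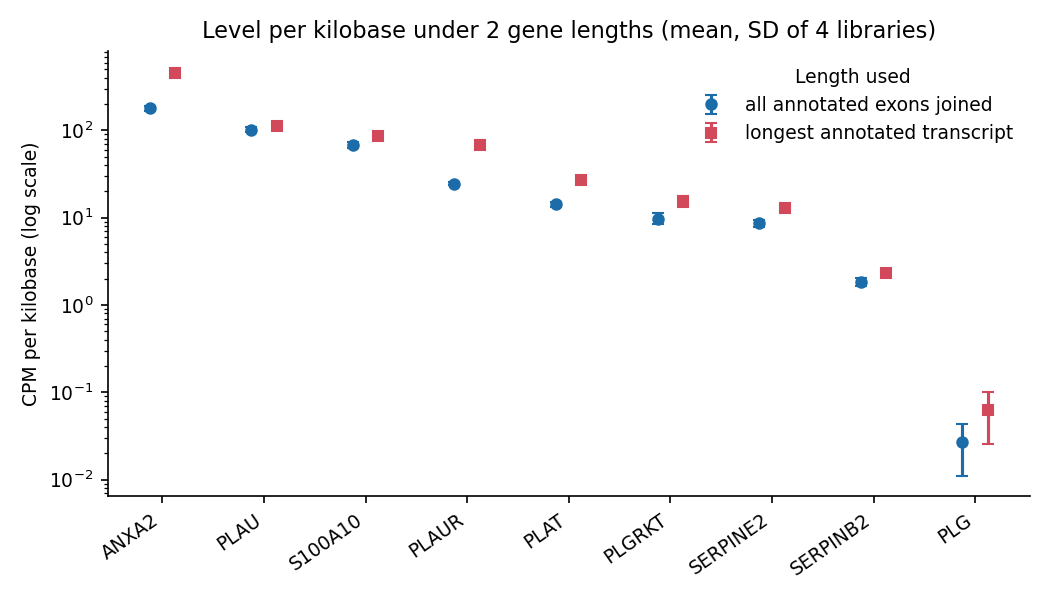
CPM per kilobase on a log axis for the 9 genes, as mean and SD of 4 KDAC8 knockout libraries, with gene length taken as all annotated exons joined or as the longest annotated transcript. The order of the genes is the same for both, but ANXA2 is at 180.0 with joined exons and at 450.1 with the longest transcript, and PLAUR at 24.6 and 68.0.

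Of the 8 genes with enough counts, 7 varied between libraries beyond counting noise, all but SERPINB2. The background was 59.2% of 16790 genes tested and 77.7% of protein-coding genes averaging at least 10 CPM, so variation of this kind was the rule at these depths. The test was a chi-square test of homogeneity with Benjamini-Hochberg adjustment over all genes. Adjusted p was 4.54e-32 for PLAU, 9.32e-06 for PLAUR, 6.06e-10 for PLAT, 1.95e-16 for SERPINE2, 2.99e-190 for ANXA2, 3.71e-16 for S100A10 and 1.00e-07 for PLGRKT. For SERPINB2, with 194 to 245 counts, adjusted p was 0.0988. None of the 8 reached 1.5 times between its highest and lowest library, against 12.3% of genes tested that varied by that much. That share includes genes with means down to 10 counts. The share among protein-coding genes averaging at least 10 CPM was not computed, so 12.3% is not a like-for-like background. Without replicate 3 the PLAUR difference did not pass (adjusted p = 0.319), and without replicate 2 that of SERPINE2 did not (adjusted p = 0.116).

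The detected genes fell into 2 sets by their value in replicate 2. PLAU, PLAUR, PLAT and SERPINE2 were each lowest there, by -0.11, -0.06, -0.14 and -0.19 log2 units from the mean of the gene. ANXA2, S100A10, PLGRKT and SERPINB2 were each highest there, by 0.12, 0.12, 0.22 and 0.22. The sets held with each of the 4 library scalings compared, which use the same counts and do not test counting noise. For PLAUR the gap was small, at 105 CPM in replicate 2 and 107 in replicate 1. PLAUR lay farther from its mean in replicate 3, at 0.09. PLGRKT and S100A10 lay farther from their means in replicate 4, at -0.29 and -0.14. ANXA2 in replicate 4, at -0.11, and PLAU in replicate 3, at 0.11, lay about as far as in replicate 2. SERPINB2 did not vary beyond counting noise (adjusted p = 0.0988, chi-square test). Membership of PLAUR and SERPINB2 is therefore uncertain. Among 9213 protein-coding genes averaging at least 10 CPM, 24.6% were lowest and 37.9% highest in replicate 2. The sets were formed after the values were seen, so the split is a description with no test.

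**Figure D3:**
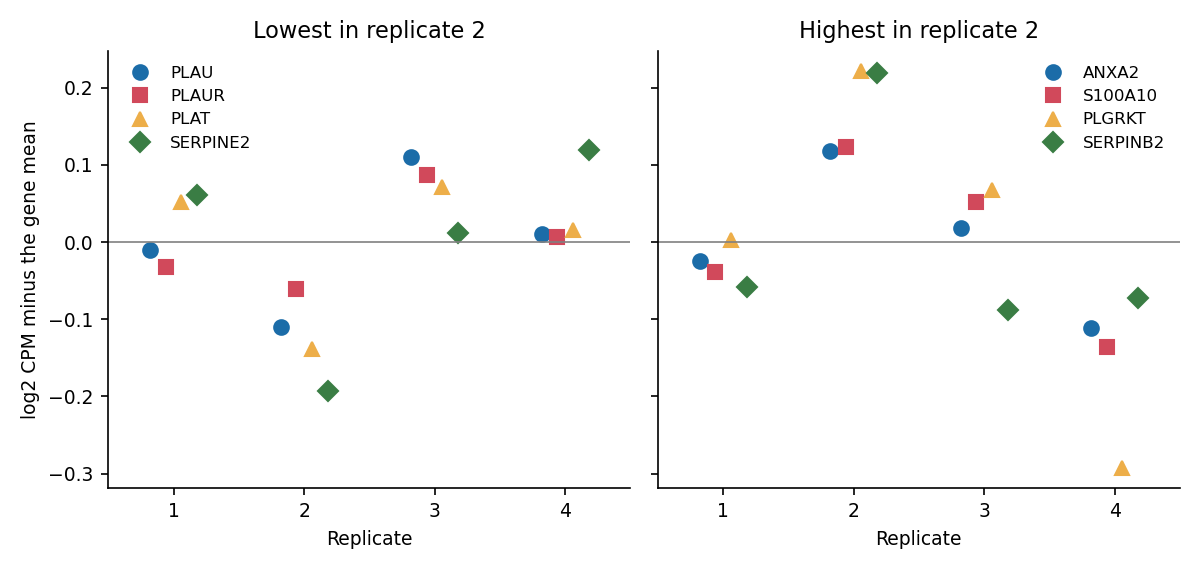
Deviation of log2 CPM from the mean of each gene, by KDAC8 knockout replicate, for the 4 genes lowest in replicate 2 (left) and the 4 highest there (right). Replicate 2 lies at -0.06 to -0.19 on the left and 0.12 to 0.22 on the right, while PLGRKT in replicate 4, at -0.29, is the farthest point.

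Gene length moved with the deviation from the gene mean in every library, and the direction differed between libraries. Protein-coding genes averaging at least 10 CPM were put into 4 equal classes by the length of their longest transcript. The median deviation in replicate 2 was 0.13 in the shortest class, then 0.05, 0.01 and -0.05 in the longest. In replicates 1 and 4 the medians rose with length, from -0.06 to 0.04 and from -0.10 to 0.03. In replicate 3 they fell from 0.03 to -0.02. Deviations are taken from the mean of the same gene, so these trends are not independent. Short structural RNAs also took a larger share of counts in replicate 2, 8.18% against 5.41% to 6.83% in the other libraries. SERPINE2 belonged to the longest class and S100A10, PLGRKT, SERPINB2 and PLAUR to the shortest. Set against the median of genes of like length, PLAU, PLAUR, PLAT and SERPINE2 were still lower in replicate 2, by -0.16, -0.19, -0.19 and -0.14. ANXA2, PLGRKT and SERPINB2 were still higher, by 0.07, 0.09 and 0.09, and S100A10 lay at the median of its class, at -0.0049. With joined exons in place of the longest transcript these values were -0.23, -0.10, -0.14 and -0.15, then 0.16, 0.10 and 0.10, and 0.0050 for S100A10. The part of length in the split was otherwise not tested.

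**Figure D4:**
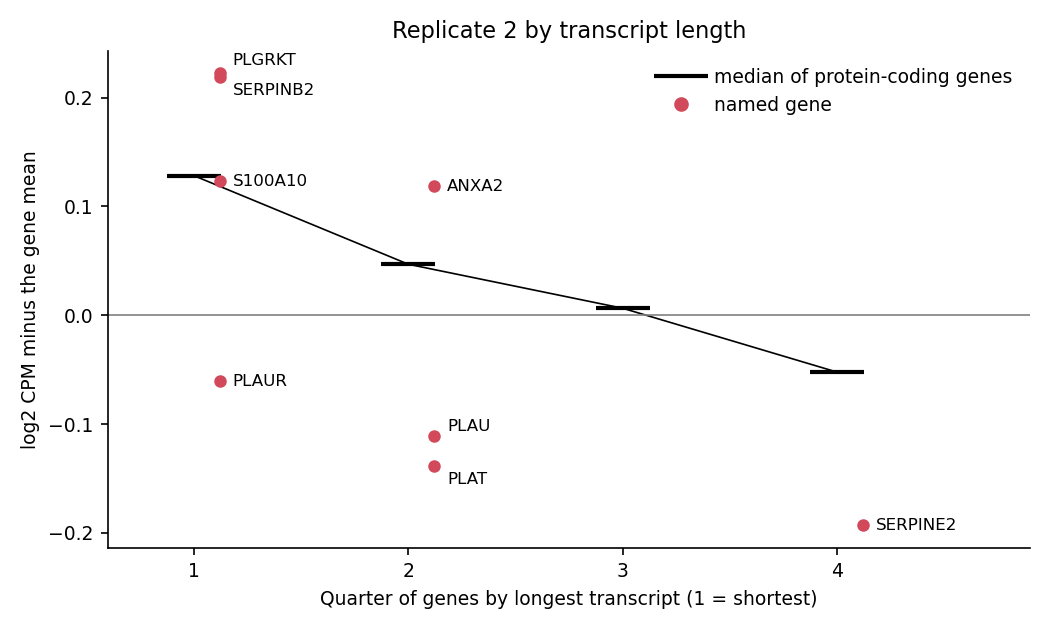
Deviation of log2 CPM from the gene mean in KDAC8 knockout replicate 2, for the named genes (points) and as the median of protein-coding genes at 10 CPM or more in each of 4 classes of longest transcript length (bars). The medians run from 0.13 to -0.05 with length, PLAU, PLAUR, PLAT and SERPINE2 lie below the bar of their class, and S100A10 lies on it.

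The genes whose pattern over the 4 libraries was nearest to PLAU were PLA2G15, DNAJB9 and RFX1, at root mean square differences of 0.00583, 0.0108 and 0.0111 log2 units. Those nearest to PLAUR were RCC2, ELF4 and RPS27, at 0.00536, 0.00606 and 0.00712. PLAU and PLAUR differed from each other by 0.0297, and among 7160 varying protein-coding genes averaging at least 10 CPM PLAUR ranked 57 in nearness to PLAU, and PLAU ranked 124 in nearness to PLAUR. With 4 libraries such likeness is a description.

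Most of the listed partners of the urokinase receptor were detected. Of 18 genes for its integrin partners, clearance receptors and associated signalling proteins, 13 were detected, against 21.4% of all rows, and 13 of 14 tested varied between libraries, against 59.2% of all genes tested and 77.7% of protein-coding genes averaging at least 10 CPM. ITGB1, the beta 1 integrin chain, had 1859, 1575, 1795 and 1792 CPM, or 292 ± 20.6 per kilobase. ITGA3, an alpha chain that pairs with it, stood at 149 ± 7.70 CPM per kilobase and caveolin 1 (CAV1) at 79.3 ± 1.67. The clearance receptor LRP1, which takes up urokinase bound to its inhibitors, had 173 ± 20.5 CPM. Of the 13 detected partners, 10 were lowest in replicate 2 and 0 were highest there, against 24.6% and 37.9% of protein-coding genes averaging at least 10 CPM. Partners were long: 7 of the 13 fell in the longest of the 4 transcript length classes, in which 50.4% of genes were lowest and 10.5% highest in that library, 4 in the next and 2 in the one after it. The part of length in this count was not tested. Vitronectin (VTN), the matrix ligand of the receptor, was at 0.147 ± 0.0424 CPM.

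Outside PLAU and PLAT, activating proteases of the list were few. Of 10 genes, 3 were detected, against 21.4% of all rows, and all 3 varied, against 59.2% of genes tested. Cathepsin B (CTSB), a lysosomal protease that can activate pro-urokinase, had 594, 597, 646 and 611 CPM, or 82.4 ± 3.18 per kilobase, and cathepsin L (CTSL) 25.9 ± 1.61 per kilobase. Coagulation factor XII (F12) stood at 1.36 ± 0.189 CPM per kilobase. Plasma kallikrein (KLKB1), hepsin (HPN) and KLK4 were at 0 counts throughout, and with 3 counts over the 4 libraries as the limit, levels up to 0.0176 CPM cannot be told from 0 (counting error only, as for all intervals here).

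Of 9 further inhibitors, 1 was detected, against 21.4% of all rows, and 1 of 2 tested varied, against 59.2%. The detected gene was SERPINB6, an intracellular serpin, at 4.76 ± 0.451 CPM per kilobase. It had 59.5, 70.7, 63.8 and 57.2 CPM, highest in replicate 2, and varied. The main plasma inhibitor of plasmin, SERPINF2, stood at 0.166 ± 0.125 CPM and neuroserpin (SERPINI1) at 0.465 ± 0.0783 CPM. SERPINI1, the other gene tested, did not pass (adjusted p = 0.692, chi-square test with adjustment over all genes). CPB2, which trims plasminogen-binding lysines from fibrin, stood at 0.143 ± 0.0447 CPM.

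Other plasminogen-binding proteins and partners of annexin A2 were abundant, with 6 of 8 genes detected, against 21.4% of all rows. Of 7 tested 6 varied, against 59.2% of genes tested and 77.7% of protein-coding genes averaging at least 10 CPM. ENO1, a glycolytic enzyme that also binds plasminogen at the cell surface, stood at 455 ± 27.6 CPM per kilobase, above ANXA2. AHNAK, a large scaffold that binds the complex of annexin A2 and S100A10, stood at 124 ± 7.12 CPM per kilobase and HMGB1 at 45.4 ± 2.17.

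Of 18 substrates of plasmin or its activators, 10 were detected, against 21.4% of all rows. Of 11 tested 7 varied, near the 59.2% of all genes tested, while 77.7% of protein-coding genes averaging at least 10 CPM varied. Of the substrates that did not pass, MST1, CDCP1 and MMP9 averaged 3.98, 2.76 and 1.14 CPM and PDGFC 55.1 CPM. MMP14, the membrane matrix metalloprotease, was highest at 178 ± 16.5 CPM per kilobase. The growth factor TGFB1 stood at 49.5 ± 2.02 and fibronectin, FN1, at 36.6 ± 6.83, an order that turns round with the longest transcripts (57.9 ± 2.36 for TGFB1 and 69.0 ± 12.9 for FN1). FN1 had 639, 480.0, 645 and 768 CPM, 1.60 times apart between replicate 2 and replicate 4, and varied between libraries. MMP1, an interstitial collagenase, had 16.5, 18.2, 17.0 and 11.9 CPM, 1.53 times apart with replicate 4 lowest (adjusted p = 2.75e-12, chi-square test with adjustment over all genes). The fibrinogen chains FGA and FGB, PDGFD and F13A1 had 0 counts in all 4 libraries. FN1 and CAV1 also stand among the mesenchymal markers and KRT8 among the epithelial ones. Levels of all 5 lists are set beside the system in the plot of list members.

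**Figure D5:**
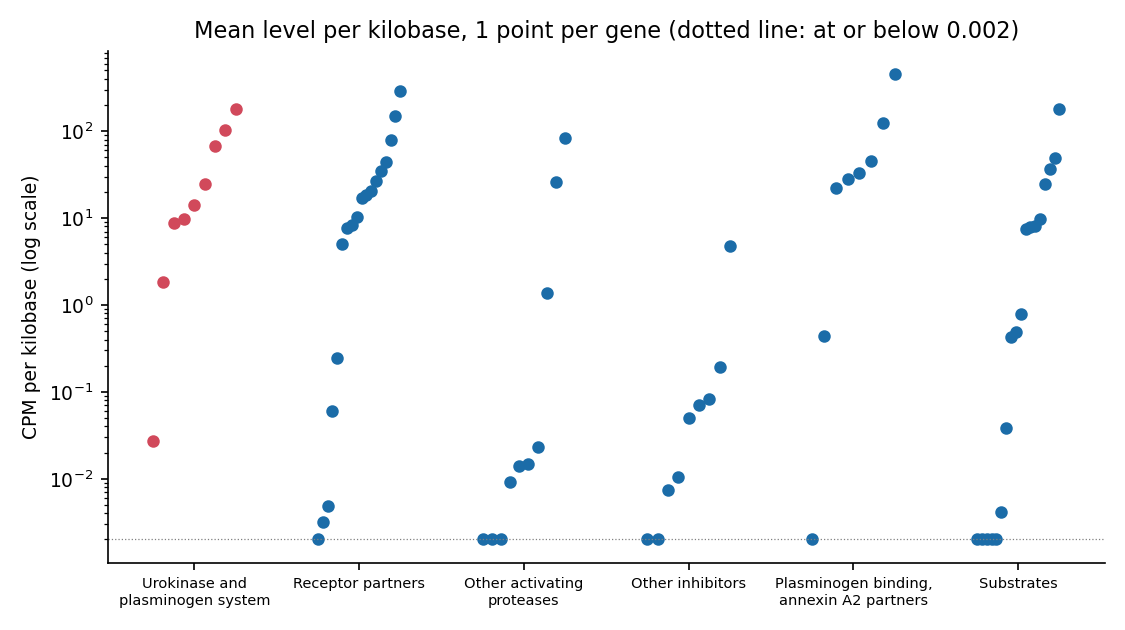
Mean CPM per kilobase of joined exons on a log axis in the 4 KDAC8 knockout libraries, 1 point per gene, for the urokinase and plasminogen system and 5 lists of related genes; points at the dotted line are at or below 0.002. The system runs from PLG at 0.0273 to ANXA2 at 180.0, and of the other inhibitors SERPINB6 alone lies above 1 CPM per kilobase.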

How the data were processed

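Per the labels' protocols, RNA came from frozen HT1080 pellets and ribosomal RNA was depleted with a Ribo-Zero Plus kit. Reads were handled, per the submitters' processing notes, with RSEM 1.3.3, Bowtie2 2.5.4, Trimmomatic 0.39 and DESeq2 1.46.0, with GRCh38. Strand setting and annotation release are unstated in those sources. Per gene, the authors deposited expected counts, not whole in 10.6% to 11.9% of values, so overlapping and similar genes are uncertain. Expected counts were rounded for tests. CPM used TMM sizes (edgeR 4.0.16), with DESeq2 1.42.0 size factors as an alternative. Exon lengths and positions came from GENCODE release 29 (GRCh38), which held 94.0% of gene IDs, and sequences from RefSeq (GRCh38.p14). Variation was tested for genes at a mean of 10 or more counts by chi-square (3 degrees of freedom), with adjustment over all genes at 0.05. This test was first run on simulated counts that held only counting noise and set changes. That run does not show how the test behaves on these libraries. Log2 deviations used a pseudocount of 0.01 CPM. All 9 members were named, and in each pathway list and among rows of similar sequence, marker lists aside, the 3 highest per kilobase and varying genes at 10 CPM or more with a 1.5-fold range; other genes named were chosen after their values were seen. Members and lists were chosen with earlier results of these data known. The lists are not the whole pathway, and other genes of it are not reported here.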

Additional observations from a re-analysis of the deposited data

Results flagged for a closer look

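SERPINB2 was flagged because replicate 2, at 5.82 CPM, stood apart from the other 3 libraries, at 4.70 to 4.80 CPM. The gap was 0.914 of the whole range, above Dixon's 95% critical value for 4 samples. The log2 ratio of SERPINE2 to SERPINB2 was flagged in the same way, at 0.849 of its range, with replicate 2 at 1.84 and the others at 2.35 to 2.45. The ratio contains the SERPINB2 counts, so the flags are not independent. In all 28 results were examined, and chance flags about 1 in 20 groups. SERPINB2 had 194 to 245 counts per library, and its difference between libraries did not pass the chi-square test adjusted over all genes (adjusted p = 0.0988). Set against the median of genes of like transcript length, SERPINB2 lay at 0.00, 0.09, -0.12 and 0.03 log2 units in replicates 1 to 4. Those genes averaged at least 10 CPM, above the mean of 5.02 CPM of SERPINB2. The part of length in the gap was not tested. The share of short structural RNAs was also highest in replicate 2, and its part in the gap was not tested.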

How the results depend on the processing

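The count of detected genes was 8 under every alternative tried: both other library scalings, removal of short structural RNAs, thresholds of 0.5 CPM or 1 CPM per kilobase, and each library left out. The count of varying genes was 7 under the scalings and count filters and 6 to 7 with a library left out, and 0 when a range of 1.5 times was also required. Over all alternatives of scaling and left-out library, the adjusted p ran up to 0.0442 for PLAT and from 0.0682 to 0.969 for SERPINB2. All 4 within-library ratios kept their sign. Log2 ratios without length were 1.67 for PLAU over PLAT, -1.46 for PLAUR over PLAU, -3.92 for S100A10 over ANXA2 and 3.95 for SERPINE2 over SERPINB2. Without replicate 2 the last ratio was 2.39 ± 0.05, against 2.25 ± 0.28 with all libraries. The comparison with genes of like length was added after seeing the data. No paired analysis was possible because the labels give 1 group. Depth limits PLG and genes at 0 counts most.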

Other observations

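SERPINE2 has 2 entries in the promoter table, and the 250 bases before 1 of them hold 7 matches to CCAAT or its complement ATTGG, set in a repeated unit. The stretch, which overlaps no annotated exon, is shown with these matches and a GC box in capitals.
SERPINE2, chr2:224031479-224031728 (GRCh38.p14), reverse strand: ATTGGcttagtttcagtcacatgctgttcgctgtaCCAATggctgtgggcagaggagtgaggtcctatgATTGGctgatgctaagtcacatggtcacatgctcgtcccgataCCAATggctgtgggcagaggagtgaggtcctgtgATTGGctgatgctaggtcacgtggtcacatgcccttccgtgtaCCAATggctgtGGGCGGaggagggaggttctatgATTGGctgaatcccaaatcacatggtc
Of 35116 entries, 7 (0.0199%) hold at least as many matches, and the highest holds 8. Which of the 2 starts the cells use cannot be read from counts per gene.

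C10orf55, whose exons overlap 916 exonic bases of PLAU on the opposite strand, had 1.31, 1.76, 2.12 and 1.29 CPM in replicates 1 to 4. It held 0.423% to 0.647% of the joint counts of both genes, and both were highest in replicate 3. In replicate 2 PLAU was lowest, at 279 CPM, while C10orf55 was above its level in replicates 1 and 4. Strand use in counting is not given, so reads of the overlap cannot be assigned to a strand.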
